A study of Homo sapiens with 2 samples.

Results

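The MYB family of transcription factor genes has 3 members in the human genome, MYB, MYBL1 (A-MYB) and MYBL2 (B-MYB), and their chromatin was examined in a map of MYBL2 binding, so that 1 member was both the protein pulled down and a locus on the map. The genes were taken by symbol, 3 of 20098 protein-coding genes. The peaks assigned to them were those that overlapped the gene body or lay within 1000 bp of any of its annotated transcription start sites (TSSs), with peaks within 50 kb of either gene end described as flanking. In total 13 of 66954 peaks met these criteria, of which 3 were promoter peaks, 5 were intragenic and 5 were flanking. The map came from A673, an established Ewing sarcoma cell line, which the labels of both libraries give as wild type (WT) with no treatment named. It rested on 1 chromatin immunoprecipitation (ChIP) library and, as its control, 1 library of unprecipitated input from the same line. The sample labels name an antibody against MYBL2, whereas the study's methods describe it as recognising the phosphorylated, activated form. The study describes the antibody as specific and states that its antibodies were checked by knocking down their antigens. Whether it also binds the related MYB and MYBL1 proteins was not tested here. There was no replicate, so ChIP and input were not compared by a test, and every interval given here covers counting error only.

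MYB proteins share an N-terminal DNA-binding domain built from tandem MYB repeats, which recognises a short site with the core AACNG. MYB drives blood progenitors and intestinal crypt cells, and MYBL1 is best known from male germ cells in meiosis. MYBL2 is produced in nearly all dividing cells, where it joins the MuvB core proteins to activate genes of late S phase, G2 and mitosis, many of which carry a CHR element (TTTGAA) in the promoter. The MYBL2 gene itself is a classical target of E2F factors, which hold it silent in resting cells together with retinoblastoma family proteins and release it on entry into S phase. MYB is also controlled within its own first intron, where a long run of T has been described as a place at which RNA polymerase pauses.

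The sequences on which the description turns are given first, read from GRCh37, whose coordinates are those of the hg19 build used by the authors. The promoters of MYB and MYBL2 held the same E2F-type site, shown in capitals within 30 bases on the strand of the gene.
MYB, chr6:135502377-135502406, plus strand: gcgccagatTTGGCGGGagggggagtgtcc
MYBL2, chr20:42295704-42295733, plus strand: ccgacgcgcTTGGCGGGagatagaaaagtg
The site began 60 bases before the canonical MYB TSS and 41 bases before the canonical MYBL2 TSS. It was chosen after these promoters were read. Its letters, TTGGCGGG on either strand, occurred in 1.63% of 19819 promoter windows of protein-coding genes, taken from 250 bases before to 50 bases after the canonical TSS. The MYBL1 window did not hold these letters.

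The summit of the MYB promoter peak is shown because its bases were G or C to 85.1%, against a median of 60.4% at the summits of promoter peaks.
MYB promoter summit, chr6:135502173-135502273, plus strand: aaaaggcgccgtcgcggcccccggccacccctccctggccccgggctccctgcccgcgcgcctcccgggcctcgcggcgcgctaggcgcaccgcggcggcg
This stretch held 19 CpG dinucleotides and no AACNG core on either strand. The intron 1 peak of MYB is shown whole, with the bases that follow it, because it ended where a run of 22 T (capitals) began.
MYB intron 1 peak, chr6:135503947-135504174, plus strand: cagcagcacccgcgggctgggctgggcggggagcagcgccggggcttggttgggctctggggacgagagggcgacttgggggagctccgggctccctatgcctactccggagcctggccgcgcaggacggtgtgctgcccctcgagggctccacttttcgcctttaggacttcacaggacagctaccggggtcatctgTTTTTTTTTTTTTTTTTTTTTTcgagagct
The run spanned chr6:135504145-135504166, and its first 5 bases lay inside the peak.

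All 3 genes had exactly 1 promoter peak, where 59.4% of protein-coding genes had at least 1. MYBL2 had the strongest, MYBL1 the second and MYB the weakest. Fold enrichment is the authors' linear ratio of the fragments piled up at the summit to the local background, each raised by 1, and the number of fragments was recovered from the deposited values. The MYBL2 promoter peak reached a fold enrichment of 10.8 from 47 fragments, with an exact 95% Poisson interval of 34.5 to 62.5 fragments. The MYBL1 promoter peak reached 8.05 from 36 fragments (interval 25.2 to 49.8). The MYB promoter peak reached 6.04 from 26 fragments (interval 17.0 to 38.1). The ratio of fragments at the MYBL2 and MYB summits was 1.81, with an exact 95% interval of 1.10 to 3.04, so this pair differed by more than counting error. The neighbours in the order were not resolved at this depth, with ratios of 1.31 (0.828 to 2.07) for MYBL2 over MYBL1 and 1.38 (0.813 to 2.39) for MYBL1 over MYB. These intervals compare positions within 1 library and hold no replicate error. The backgrounds behind these ratios were close to each other, at 3.45 fragments for MYBL2, 3.60 for MYBL1 and 3.47 for MYB, so the order of the fold enrichments was that of the fragments.

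**Figure D1:**
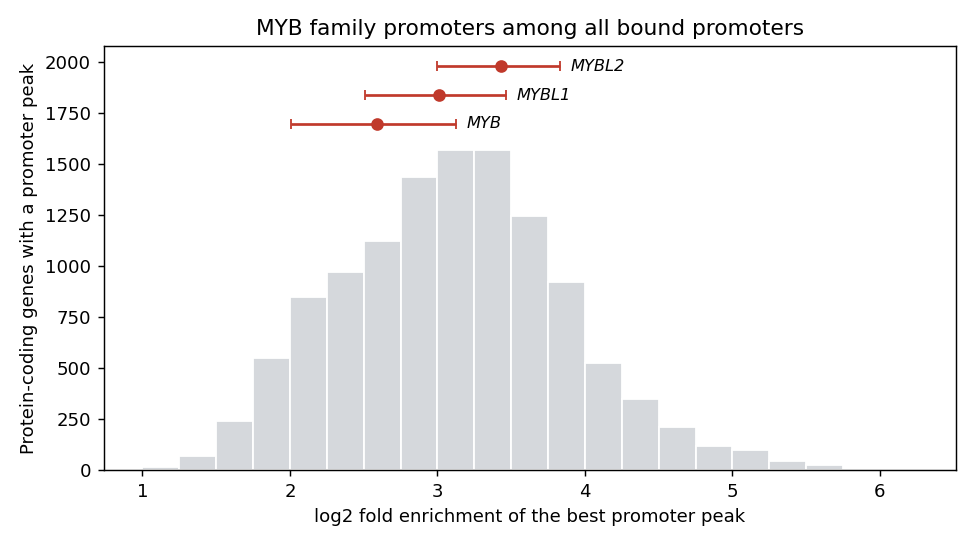
Distribution of the log2 fold enrichment of the best promoter peak over the 11941 protein-coding genes with a promoter peak (grey bars, number of genes). Red points mark MYB, MYBL1 and MYBL2, drawn above the bars at arbitrary heights, with exact 95% Poisson intervals as whiskers. The family lies within the bulk of bound promoters, with MYB on the lower flank (6.04 on the linear scale) and MYBL2 above the median of 8.67 (10.8).

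Among the 11941 protein-coding genes with a promoter peak, the median of the best promoter peak was a fold enrichment of 8.67. MYBL2 ranked 3933 of these genes, with 66.8% of them weaker. MYBL1 ranked 6634, with 44.4% weaker, and MYB ranked 8900, with 25.5% weaker. By these values the gene whose product was immunoprecipitated stood above the median and the other two below it, although the interval of each of the 3 included 8.67. None was among the strongest promoters of the list, in which fold enrichment went up to 64.9. By width, the order was different. The MYBL2 promoter peak, at 1431 bp, was wider than 88.8% of promoter peaks, while those of MYB (935 bp) and MYBL1 (930 bp) were nearly equal and wider than 74.4% and 74.2%, respectively. Here the median promoter peak measured 492 bp.

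MYBL2 (ENSG00000101057) lies on chr20:42295659-42345135 on the plus strand and has 14 exons in its canonical transcript. Its promoter peak spanned chr20:42295424-42296854, with a −log10 q of 33.3. The summit at 42295795 fell 41 bp downstream of the canonical TSS, in the 5′ UTR of exon 1 of both annotated transcripts. It lay 82 bp from the first base of the E2F-type site printed above, which was thus within the peak but outside the 50 bp either side of the summit. The promoter window had a GC content of 75.3%, higher than in 86.3% of promoter windows. It held 1 AACNG core, and no CHR element, CCAAT box or ETS core (CCGGAAGT).

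MYB (ENSG00000118513) lies on chr6:135502446-135540311 on the plus strand, with 41 annotated transcripts and 11 different TSSs. Its promoter peak spanned chr6:135501820-135502754, with a −log10 q of 12.1. The summit at 135502223 was 223 bp upstream of the canonical TSS and 163 bp upstream of the E2F-type site, which lay inside the peak. The promoter window had a GC content of 71.0% and held 2 AACNG cores but neither AACGG, a CHR element nor a CCAAT box.

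MYBL1 (ENSG00000185697) lies on chr8:67474410-67526482 on the minus strand, with 6 annotated transcripts that each start at a different TSS. Its promoter peak spanned chr8:67525168-67526097, with a −log10 q of 21.0. The summit at 67525842 was 389 bp upstream of the canonical TSS and inside 1 annotated transcript, which starts further upstream. MYBL1 was the only member whose promoter window held a CHR element, a CCAAT box and AACGG, the stricter form of the MYB core. These lay close together, at 79, 108 and 75 bases before the canonical TSS, and the CHR element overlapped the AACGG match by its last bases. The summit, 389 bp upstream, was outside this window, and none of these motifs lay within 50 bp of it. Over all promoter windows, 12.8% held a CHR element (TTTGAA or TTCGAA, either strand), 36.0% held CCAAT and 22.1% held AACGG. A GC content of 72.0% placed this window near that of MYB.

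**Figure D2:**
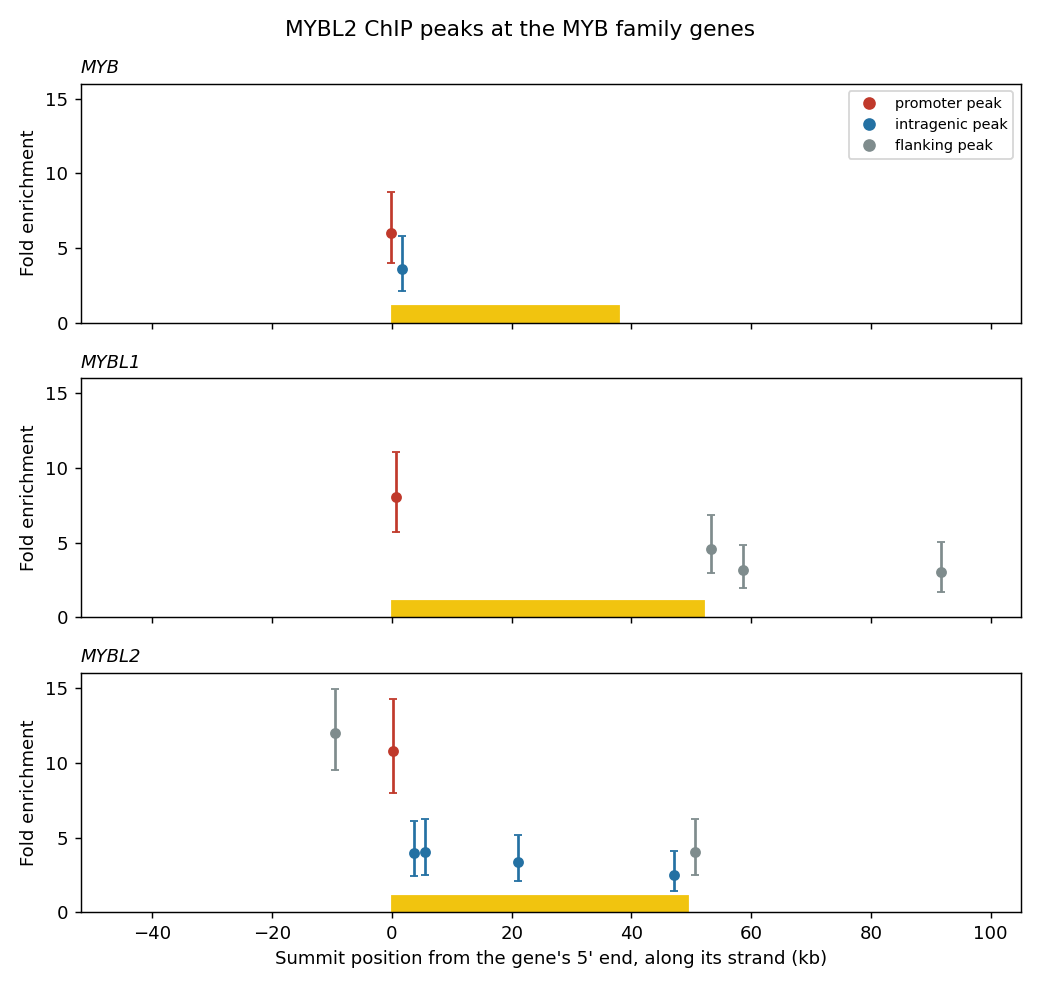
Peaks at MYB, MYBL1 and MYBL2, plotted as fold enrichment (y axis) against the distance of the summit from the 5′ end of the gene along its strand in kb (x axis). Red points are promoter, blue intragenic and grey flanking peaks, whiskers are exact 95% Poisson intervals and yellow bars the gene bodies. MYB has 2 peaks, both at its 5′ end, MYBL1 has 1 at its start and 3 beyond its 3′ end, and MYBL2 has 7 from upstream of the gene to just past its end.

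The genes also differed in the number of peaks in their bodies, although these counts depended on the threshold. MYBL2 had 4 intragenic peaks outside its promoter, MYB had 1 and MYBL1 had 0, whereas 38.0% of protein-coding genes had at least 1. Since longer genes offer more sequence for a peak, the 3 genes were set beside the 3666 protein-coding genes of 30 to 60 kb, the range that holds their lengths of 37866, 52073 and 49477 bp for MYB, MYBL1 and MYBL2. Of these, 58.6% had 0 intragenic peaks, like MYBL1, 41.4% had at least 1, like MYB, and 14.2% had at least 4, like MYBL2. With peaks limited to a fold enrichment of at least 5, the number was 0 at each of the 3 members.

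The 4 intragenic peaks of MYBL2 were all intronic and all weaker than its promoter peak. In intron 1 there were 2, at chr20:42299218-42299530 with a fold enrichment of 3.94 and at chr20:42300899-42301342 with 4.02, each from 18 fragments (interval 10.7 to 28.4). Their summits were 3619 and 5470 bp downstream of the canonical TSS. Another, at chr20:42316672-42316927 in intron 5, had a fold enrichment of 3.35, also from 18 fragments but over a higher background of 4.66. The last, at chr20:42342655-42342943 in intron 12, had 2.47 from 13 fragments and a −log10 q of 1.504, close to the authors' threshold. Only 2.97% of all peaks in the list were weaker than the intron 12 peak, whereas the 2 peaks of intron 1 lay just above the median of all peaks (3.79). The interval of each of the 4 lay wholly below 7.98, the lower bound of the fold enrichment at the MYBL2 promoter.

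Their summits, with 50 bases on either side, are shown because they differ in the letters the MYB and MuvB proteins are known to read. Capitals mark an AACNG core on either strand in the first and last, and the CHR letters TTTGAA in the peak of intron 5.
Intron 1, first peak, chr20:42299323-42299423, plus strand: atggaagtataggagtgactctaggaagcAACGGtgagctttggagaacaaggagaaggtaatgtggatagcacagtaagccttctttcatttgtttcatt
Intron 1, second peak, chr20:42301174-42301274, plus strand: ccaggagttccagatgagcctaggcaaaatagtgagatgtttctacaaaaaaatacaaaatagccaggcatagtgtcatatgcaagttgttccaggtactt
Intron 5, chr20:42316734-42316834, plus strand: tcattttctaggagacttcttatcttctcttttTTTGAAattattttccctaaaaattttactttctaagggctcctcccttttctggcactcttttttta
Intron 12, chr20:42342762-42342862, plus strand: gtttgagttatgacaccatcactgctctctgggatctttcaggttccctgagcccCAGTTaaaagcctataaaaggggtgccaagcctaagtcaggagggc
The first of these was the only 1 of the 13 peaks at the family with AACGG within 50 bp of its summit, a match present in 3.43% of peaks away from promoters and 8.23% of promoter peaks. The second held none of the motifs searched. The intron 5 summit was the only 1 of the 13 with a CHR element, which occurred at 11.4% of summits away from promoters.

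The single intragenic peak of MYB, whose sequence is given above, spanned chr6:135503947-135504149 in intron 1. Its summit lay 1624 bp downstream of the canonical TSS and its 15 fragments (interval 8.40 to 24.7) gave a fold enrichment of 3.59, with a −log10 q of 3.81. Thus 43.0% of all peaks were weaker. The T run began 75 bases past the summit and 1699 bases past the TSS. Apart from this peak and the promoter, the remaining gene body of MYB held no peak, and neither did the antisense gene MYB-AS1 that overlaps it.

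The surroundings of the genes differed as well. Flanking peaks within 50 kb were present at 2 of the 3 genes, against 72.0% of protein-coding genes, and numbered 0 at MYB, 3 at MYBL1 and 2 at MYBL2. Among the 3666 genes of 30 to 60 kb, the median was 2 flanking peaks and 23.2% had 0.

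The strongest of all 13 peaks was not within 1000 bp of an annotated TSS but further upstream of MYBL2. Whether an unannotated TSS lies there was not tested. Its 78 fragments (interval 61.7 to 97.3) gave a fold enrichment of 12.0 and a −log10 q of 56.4. The interval of its fold enrichment, 9.50 to 14.9, overlapped that of the MYBL2 promoter, 7.98 to 14.3. It held 1.66 times as many fragments as the promoter summit (exact 95% interval 1.14 to 2.44). The local background of the upstream peak was higher, at 5.60 fragments against 3.45. Of the 44011 peaks away from annotated promoters of protein-coding and lncRNA genes, 99.6% had a lower fold enrichment.

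On the other side, a peak at chr20:42345962-42346592, 827 bp past the annotated end of MYBL2, had a fold enrichment of 4.02 from 18 fragments. At MYBL1 the 3 flanking peaks were also all past the end of the gene. The nearest, chr8:67472937-67473354, was 1056 bp from it and held 22 fragments (interval 13.8 to 33.3), a fold enrichment of 4.59. The others, 6094 and 39582 bp away, had 3.18 and 3.03. Both MYBL1 and MYBL2 therefore had a peak close behind the gene, at 1056 and 827 bp, and MYB had none. Their fold enrichments of 4.59 and 4.02 were not far above the median of all peaks, 3.79. The share of all protein-coding genes with a peak this close behind the gene was not counted, so nothing particular to these genes is read from it.

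MYB was the most isolated of the 3. Upstream of its promoter peak, 125 kb passed without a peak up to one at the promoter of HBS1L (fold enrichment 10.3), and downstream of the intron 1 peak, 314 kb passed up to one at the promoter of AHI1 (7.95). Of the 66931 intervals between neighbouring peaks on a chromosome, 92.8% and 97.4% were shorter than these, and the median interval was 2291 bp. At MYBL1 the intervals downstream and upstream of the promoter peak measured 51.8 and 53.0 kb, and the gene body accounts for most of the first. The next peak upstream of MYBL1 was at the promoter shared by VCPIP1, a deubiquitinase gene, and C8orf44, with a fold enrichment of 18.9, which lay beyond the 50 kb limit although the body of VCPIP1 lies within it. Upstream of MYBL2, the promoter of IFT52, a gene for intraflagellar transport in cilia, had a peak of 9.96. The other annotated neighbours within 50 kb had no promoter peak. These were MIR548A2 and the lncRNA ENSG00000224374 at MYB, VXN, ENSG00000285791 and a Y_RNA copy at MYBL1, and RPL27AP and GTSF1L at MYBL2.

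In Ewing sarcoma, EWSR1-FLI1, the fusion protein that drives the tumor, binds runs of GGAA, and the study concerned such a microsatellite on the far side of MYBL2. The primers designed for its reporter assays placed the amplified region at chr20:42490906-42491784 in the reference genome, in which it holds 15 GGAA units in a row. In the sequence below they appear as TTCC, their reverse complement, in capitals.
GGAA microsatellite, chr20:42491246-42491345, plus strand: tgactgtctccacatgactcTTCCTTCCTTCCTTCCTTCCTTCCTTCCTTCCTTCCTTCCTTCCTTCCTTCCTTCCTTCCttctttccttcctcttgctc
The repeat began 146 kb past the end of MYBL2. No MYBL2 peak overlapped the amplified region, and the nearest were 144 kb away on the side of MYBL2 and 51.3 kb away on the side of TOX2. The interval without peaks measured 196 kb, longer than 95.5% of intervals between neighbouring peaks. Across the genome, 2285 repeats had at least 12 GGAA units and 164 of them (7.18%) overlapped a peak. The authors kept reads with a mapping quality of at least 20, and reads within a repeat are hard to place, so the list cannot show that MYBL2 was absent from the repeat itself. A shorter repeat of 9 units in TOX2, at chr20:42556230-42556265, overlapped the end of a peak at chr20:42553943-42556247 with a fold enrichment of 5.46, whose summit was at 42554869.

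**Figure D3:**
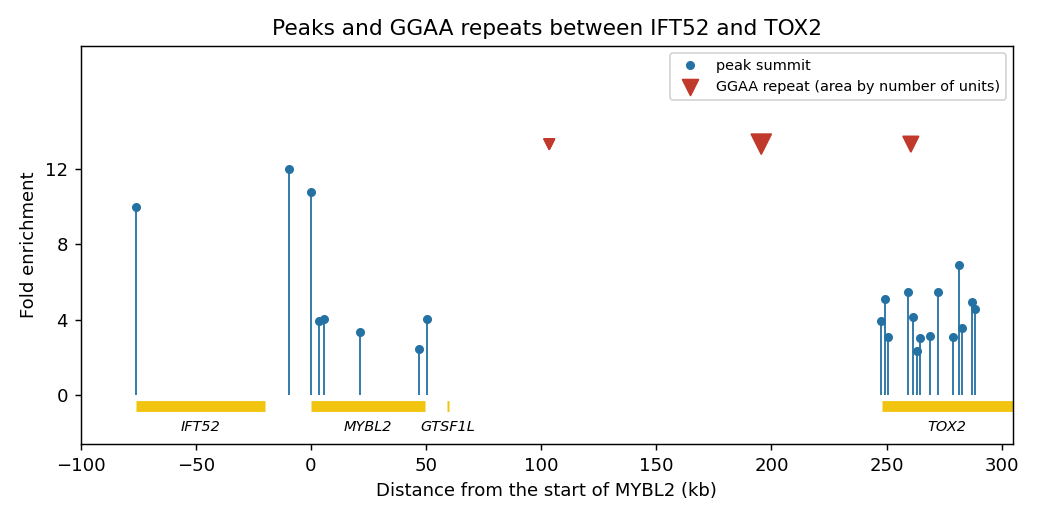
Peaks and GGAA repeats from IFT52 to TOX2, with the fold enrichment of each peak (blue, y axis) against the distance of its summit from the start of MYBL2 in kb (x axis). Red triangles, drawn at an arbitrary height, are runs of at least 4 GGAA units, with an area that grows with the number of units, and yellow bars are genes. The repeat of 15 units lies within the 196 kb interval that holds no peak, between the last peak of MYBL2 and the first of TOX2.

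With regard to motifs, 5 of the 13 summits had an AACNG core within 50 bp. They were the promoter peaks of MYBL1 and MYBL2, the first and last intronic peaks of MYBL2, and the most distant flanking peak of MYBL1. Over the whole list, 40.9% of promoter peaks and 45.7% of other peaks held this core, so that its presence at these summits did not set them apart. The E2F forms TTTCCCGC, TTTGGCGC, TTTCGCGC and TTTGCCGC, the CCAAT box and the ETS core CCGGAAGT were present at 0 of the 13 summits. Over the whole list the E2F forms occurred at 1.14% of promoter peaks and 0.198% of other peaks. The ETS core occurred at 1.77% and 0.152%, and the CCAAT box at 10.4% and 14.4%. With shares this low, their absence from 13 summits did not set the family apart either. A match of letters is a description of the window and does not show that a factor bound there.

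To place the family among genes it works with, 16 genes for proteins that bind, modify or act with MYB proteins were considered. Of these, 15 had a promoter peak and HIPK2, a kinase that phosphorylates MYB, had none. The median of their best promoter peaks was a fold enrichment of 12.4, above each of the 3 family members and above the 8.67 of all bound protein-coding genes. The strongest peak was taken where a gene had several, as for PLK1 with 6, whereas each family member had 1. The median is therefore not a like comparison with the family. The strongest was PLK1, the mitotic kinase that phosphorylates MYBL2, with 29.6 from 136 fragments. CCNA2, whose product cyclin A activates MYBL2 together with CDK2, reached 22.7, while CDK2 itself had 8.36. NLK, a kinase that leads MYB to degradation, had 23.6, and FBXW7, which brings it to the proteasome, had 11.01. FOXM1, which follows MYBL2 onto MuvB at G2/M promoters, had 14.95. The MuvB core was uneven. LIN37 had 20.0, RBBP4 11.9 and LIN9 10.9, whereas LIN52 and LIN54, the latter being the subunit that contacts the CHR element, had 6.29 and 6.07. The last 2 were near MYB, at 6.04. The coactivators CREBBP and EP300 had 13.5 and 12.4, the ubiquitin ligase subunit SKP2 had 16.4, and the SUMO ligase PIAS1 had 8.72.

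A second list held 8 genes whose proteins carry MYB-type repeats but do not belong to the family. Each of the 8 had a promoter peak, with a median fold enrichment of 10.0. CDC5L, a splicing factor, had the highest at 21.0, followed by the telomere protein gene TERF2 with 18.4 and SNAPC4, a subunit of the complex that starts snRNA transcription, with 17.1. DMTF1 (10.2) and DNAJC2 (9.92) came next, and MYSM1 (8.10), TTF1 (7.82) and TERF1 (7.61) were lowest. Thus the MYB promoter was below the lowest gene of this list, and the MYBL2 promoter was between SNAPC4 and DMTF1. These places are an order of values, and no ratio of fragments was computed for them. The MYB interval, 4.02 to 8.74, overlapped that of TERF1, 5.36 to 10.5. That of MYBL2, 7.98 to 14.3, overlapped most of that of DMTF1, 7.54 to 13.4. It met that of SNAPC4, 13.5 to 21.3, only at the edge, with 47 fragments at MYBL2 against 75 at SNAPC4. Overlap alone does not place a pair within counting error, since the intervals of MYBL2 and MYB also overlapped while their ratio of fragments excluded 1. Since 59.4% of all protein-coding genes had a promoter peak and the lists were not drawn blind to these data, nothing particular to either list was read from its count.

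**Figure D4:**
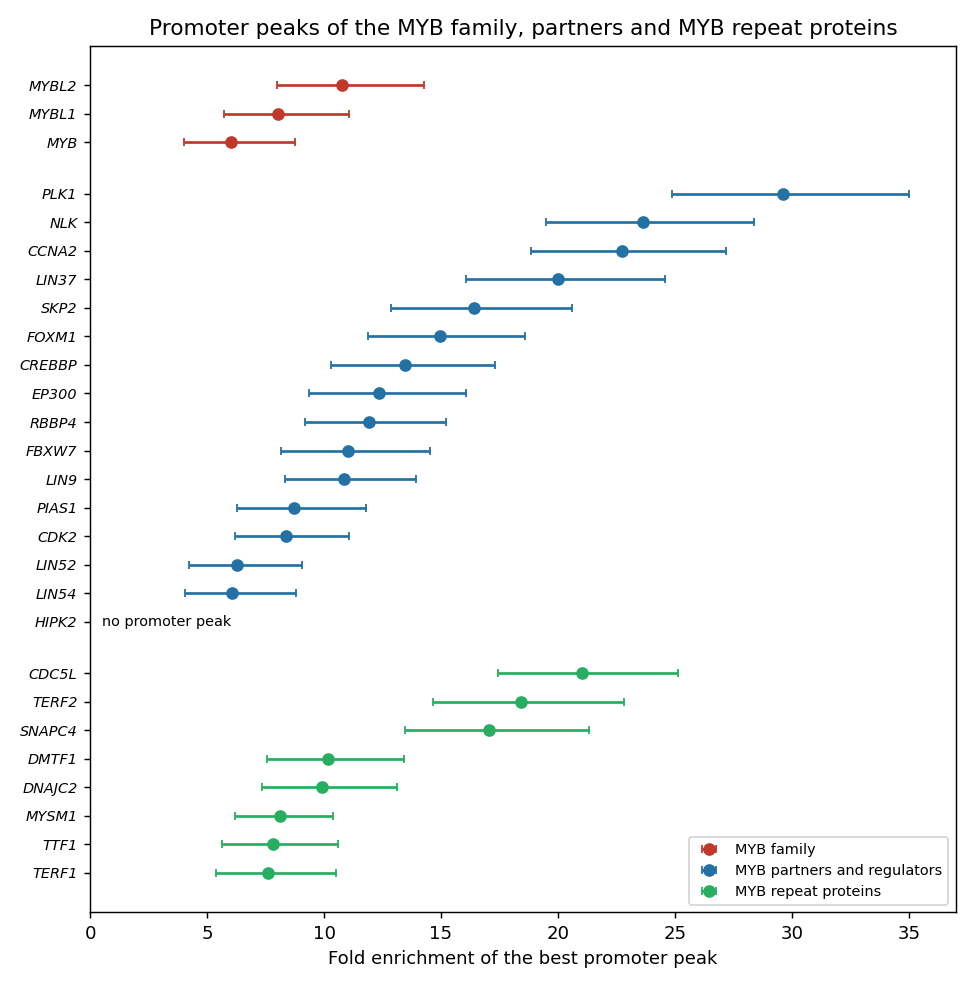
Fold enrichment of the best promoter peak (x axis) of the 3 MYB family genes (red), 16 partners and regulators (blue) and 8 genes for other proteins with MYB repeats (green), each list ordered by strength. Whiskers are exact 95% Poisson intervals. The partners run from 6.07 (LIN54) to 29.6 (PLK1), HIPK2 has no promoter peak, and the family lies between 6.04 and 10.8.

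Finally, the protein-coding genes most like each member were sought by the closest fold enrichment of the best promoter peak. They were taken from genes with the same total of promoter plus intragenic peaks, so the split between the 2 kinds could differ. Ties were taken in order of gene name. For MYB, among 2466 genes with 2 peaks, these were ENSG00000187186 (6.04), FTCDNL1 (6.03) and TSPAN6 (6.04). For MYBL1, among 3617 genes with 1 peak, they were PRR14 (8.05), ANAPC15 (8.04) and ACTRT3 (8.03). For MYBL2, among 654 genes with 5 peaks, FAM172A, GPANK1 and MAML1 had the very same 10.8. MYBL2 had 1 promoter and 4 intragenic peaks, whereas FAM172A and MAML1 had 2 and 3, and GPANK1 had 3 and 2. The likeness rests on 1 library and says nothing of shared function.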

How the data were processed

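MYBL2 ChIP and input DNA from A673 cells were sequenced as single-end reads. The authors aligned reads to hg19 with Bowtie2 (version 2.1.10 in the submitters' processing notes), kept a mapping quality of at least 20 and called narrow peaks with MACS2 (2.0.10) at a q-value of 0.05 with the input as control. What a further cleaning step did is not given in the sources used here. Each line of the deposited list gives a score (10 times −log10 q, decimals dropped), the fold enrichment as a linear ratio, and −log10 p and −log10 q, all as the authors computed them. Whole-number pileups were recovered here by solving fold enrichment and p together, and the remaining misfit in −log10 p was at most 3.49e-05. The procedure was tested on simulated data. Read totals were not used here, so depth is given as fragments per summit, with a median of 20 (range 11 to 293), and the background floor of 3.45 fragments was held by 20.5% of peaks.

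Genes came from GENCODE release 44 lifted to GRCh37, on chromosomes 1 to 22 and X. Python 3.11.15, scipy 1.17.1 and bedtools 2.31.1 were used. Intervals are exact Poisson intervals at 95%, carried to fold enrichment with the background held fixed, and ratios of fragments have exact (Clopper-Pearson) intervals. Duplicate fragments are not independent molecules. Named genes were the 3 members, every gene within 50 kb, the 3 most similar genes per member and both gene lists. HBS1L, AHI1, C8orf44 and TOX2, as the next genes with peaks, were named after their values were seen. The members, gene lists and motifs were chosen with earlier results of these data known. No promoter of MYBL1 and no sequence of chromosome 8 is printed, and the sequence of the peak upstream of MYBL2 is not reported here. Alternatives were stricter peak thresholds, other promoter, flank and motif windows, merged peaks and other rankings.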

Additional observations from a re-analysis of the deposited data

How the results depend on the processing

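Of 131 alternative values, 116 stayed within 1.5 times the reported count, at the same rank or within the counting interval, and 15 moved. The order MYBL2, MYBL1, MYB and each promoter peak held under every alternative tried. Most of these alternatives could not have changed it. Each promoter peak was far above the −log10 q threshold and above that of fold enrichment, and every promoter window returned the same best peak per gene. The 116 values include such repeats, and they do not resolve the neighbours in the order. Counts of intragenic and flanking peaks depended on the threshold. With a −log10 q of at least 5, the intragenic peaks of MYB went from 1 to 0 and those of MYBL2 from 4 to 2, and the flanking peaks of MYBL1 from 3 to 1. With a fold enrichment of at least 5, intragenic peaks numbered 0 at MYB and 0 at MYBL2, and flanking peaks 0 at MYBL1 and 1 at MYBL2, the upstream peak. A promoter reaching from 5000 bp upstream to 1000 bp downstream of any TSS counted 2 promoter and 0 intragenic peaks at MYB, and a flank of 100 kb gave MYBL1 7 flanking peaks. Motif counts followed the length searched. AACNG was present at 9 of the 13 peaks within 100 bp of the summit and at 12 over the whole peak, against 5 within 50 bp. AACGG was present at 2 and 5, against 1, and the CHR element at 4 over the whole peak, against 1. No peak lay within 5000 bp of the amplified microsatellite region. No paired analysis was possible because there was 1 ChIP library and 1 input library, and for the same reason no replicate could be left out. All family peaks but the upstream peak of MYBL2 rested on 13 to 47 fragments at the summit, so the depth limits comparisons of strength between them.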
